A study of Mus musculus with 2 samples.

Results

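Genes of immature and transitional B cells were followed in sorted B cells of the mouse spleen, on 1 Affymetrix array of follicular and 1 of marginal zone B cells. The genes were Sox4, Cd93, Myb, Vpreb3, Cd24a, Igll1, Dntt and Rag1, a list of 8 named for their roles before B cells mature. Every probe set annotated to exactly 1 of them was taken, which gave 21 of the 22626 probe sets on the arrays; 0 probe sets listed a member together with another gene. Both populations came from the spleens of 3 wild-type female C57BL/6 mice, with no allele or treatment named. B220 beads enriched the B cells, and antibodies to CD21 and CD23 divided them: CD23 high with CD21 intermediate was collected as follicular, CD23 intermediate with CD21 high as marginal zone. The labels name no stain for CD93 or CD24, so these members did not enter the gates. The age of the mice, and whether both gates were applied to the same animals, were not stated in the labels. With 1 array a population there is no replicate error, so no test was possible, and differences are sizes between 2 arrays made from pooled cells.

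B cells form in the bone marrow, leave it as immature cells and pass through transitional stages in the spleen before they become follicular or marginal zone cells. Rag1 and Dntt build the antigen receptor genes in the bone marrow, and Igll1 encodes part of the surrogate light chain that pairs with the first heavy chain. CD93 and high CD24 are surface signs used to recognise the stages that follow. Sox4 and Myb are transcription factors on which early lymphoid cells depend. Mature splenic B cells have left the recombination stage, and CD93 is used to separate transitional from mature cells.

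The values are scaled MAS5 signals, a summary of the brightness of a probe set on a linear scale. A floor of 12.7, the median of all scaled signals, marks where background begins, and a probe set was measured if it exceeded the floor on at least 1 array. A second mark came from genes of unrelated tissues, such as liver, retina and testis: 69 probe sets of 47 such genes had a median signal of 4.65, a 95th percentile of 17.2 and a highest signal of 33.0, that of the keratin Krt10 in follicular cells. Of the 21 member probe sets, 12 (57.1%) were over the floor, close to the 56.8% of all probe sets and above the 26.1% of the unrelated tissue probe sets. There were 11 member probe sets over 17.2 and 7 over 33.0. The members thus divided into Cd24a, which was bright on both arrays, a group with signals from under the floor to 60.4, and Dntt and Rag1, which were under the floor throughout.

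**Figure D1:**
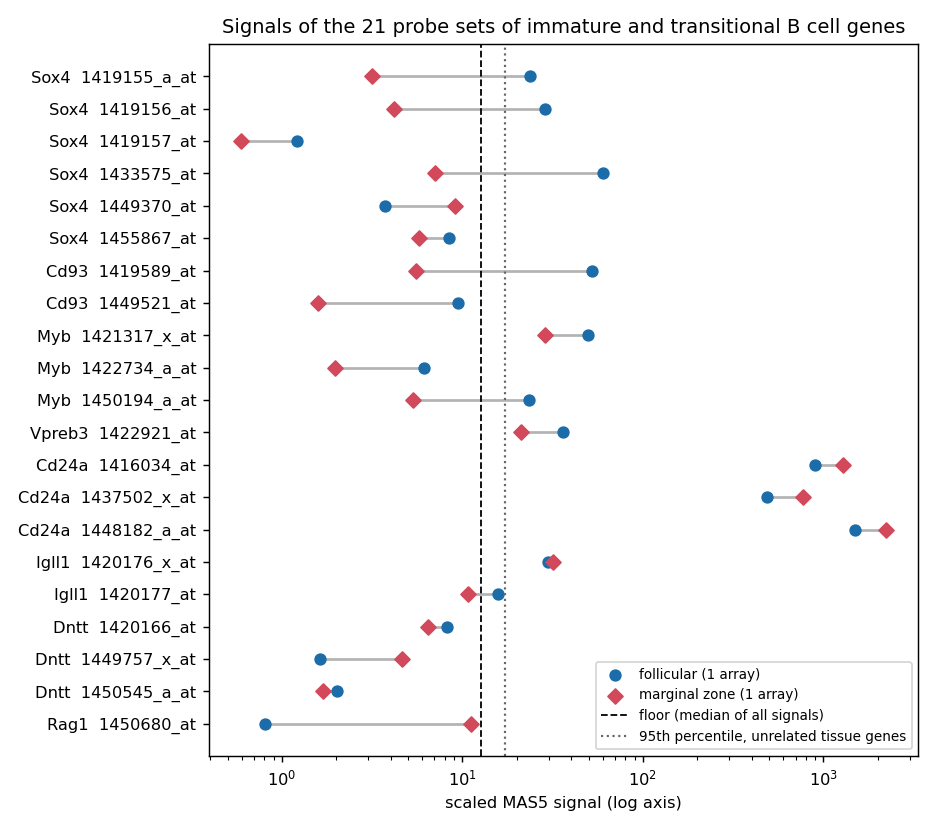
Scaled MAS5 signal (log axis) of each of the 21 member probe sets, with 1 point for the follicular and 1 for the marginal zone array; the dashed line is the floor of 12.7 and the dotted line the 95th percentile of unrelated tissue genes, 17.2. Only the 3 probe sets of Cd24a lie far to the right, and 6 probe sets have the follicular point right of the floor and the marginal zone point left of it.

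The sorted cells carried B cell transcripts. Of 7 B cell markers 6 were on the array and all 6 exceeded the floor, led by Ms4a1, the gene of CD20, at 1754 in follicular and 1878 in marginal zone cells, while Pax5 was low at 20.7 and 16.6. The gate gene Fcer2a, which encodes CD23, was at 726.8 and 89.6, and Cr2, which encodes CD21, at 277.9 and 889.8. Ptprc, the gene of B220, was at 1901 and 1986.

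Of the 8 members, 6 had a measured probe set, and 2 of these 6, Sox4 and Cd93, exceeded the marginal zone signal at least 2-fold in follicular cells, against 4.86% of the 7695 measured genes. None of the 6 was past 2-fold in the marginal zone direction, where 4.39% of measured genes were. At 1.5-fold the follicular count was 4 of 6, with Myb and Vpreb3 added, against 15.8% of measured genes. The marginal zone to follicular log2 ratio had a median of -0.78 over the 6 genes and -0.03 over all measured genes. These 6 are not all members, since Dntt and Rag1 gave no ratio, and 6 genes are too few to call the list different from other genes. Sox4 and Cd93 were over the floor in follicular cells alone, so the filter fixed their direction. The list was also chosen with earlier results of these data known, so these counts and medians are a description and no support. In sorted populations, fewer cells that carry a transcript and less of it in each cell cannot be told apart.

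Upstream sequence was available for Sox4, Myb and Vpreb3, the members with higher follicular signals for which a window was found, and is shown because these genes differed in the same direction. Each line gives the 250 bases before the RefSeq start of the gene, 5′ to 3′ on the gene's strand, in build GRCm38.p6, with windows at chr13:28953700-28953949 (minus strand) for Sox4, chr10:21160985-21161234 (minus strand) for Myb and chr10:75948050-75948299 (plus strand) for Vpreb3. Capitals mark E-boxes (CANNTG), the sites of E proteins such as E2A, and the octamer (ATTTGCAT) of immunoglobulin promoters.
Sox4: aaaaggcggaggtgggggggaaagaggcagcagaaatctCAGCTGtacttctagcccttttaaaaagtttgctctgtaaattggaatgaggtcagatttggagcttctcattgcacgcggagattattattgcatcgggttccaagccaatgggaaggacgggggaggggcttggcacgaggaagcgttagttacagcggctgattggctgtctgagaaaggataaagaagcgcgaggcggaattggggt
Myb: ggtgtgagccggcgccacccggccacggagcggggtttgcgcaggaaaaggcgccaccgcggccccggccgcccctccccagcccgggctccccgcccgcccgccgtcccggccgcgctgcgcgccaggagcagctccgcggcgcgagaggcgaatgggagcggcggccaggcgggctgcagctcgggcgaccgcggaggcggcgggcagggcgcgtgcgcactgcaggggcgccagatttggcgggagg
Vpreb3: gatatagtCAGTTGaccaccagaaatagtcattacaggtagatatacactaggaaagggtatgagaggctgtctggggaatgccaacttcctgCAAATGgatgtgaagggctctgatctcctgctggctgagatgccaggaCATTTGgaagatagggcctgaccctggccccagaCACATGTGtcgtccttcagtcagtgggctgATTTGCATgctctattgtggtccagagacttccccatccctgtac

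The windows shared little. Vpreb3 held 5 E-boxes, 2 of which overlap each other, Sox4 held 1 and Myb 0, where 66.2% of the 32851 windows of all genes held at least 1. The octamer stood 45 to 38 bases before the start of Vpreb3 and in neither other window, and 1.60% of all windows held it; this motif was added to the search after the sequence had been read. The Myb window was 81.2% G and C with 40 CG pairs, against 50.8% and 11 for Sox4, 50.4% and 1 for Vpreb3, and a median of 52.4% G and C over all windows. Both strands were also searched for GGAA, the core of ETS factor sites, found 6 times for Sox4, 1 time for Myb and 5 times for Vpreb3 (1 of them overlapping an E-box by 1 base) and in 93.4% of all windows. The GC box GGGCGG was found 3 times in Myb, in places that partly overlap, and 0 times in the other two, against 32.7% of windows. AACNG, the core of MYB sites, was found 1 time in Vpreb3, inside an E-box, and in 74.2% of windows. The SOX core ACAAAG (16.5% of windows), the EBF core CCCNNGGG (11.8%), the TATA box TATAAA (12.4%) and the FOXO core TAAACA (12.0%) had 0 matches in these 3 windows. No direction was given for Igll1, Dntt and Rag1, whose windows are not shown. Those windows held 3 E-boxes each, and 3, 2 and 0 matches of AACNG. A match is a run of letters and no evidence of binding.

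Sox4, a high mobility group transcription factor needed for early B cell survival, was one of the members past 2-fold, and with both marginal zone signals under the floor its order against Cd93 is not known. Its brightest probe set, 1433575_at, was at 60.4 in follicular and 7.03 in marginal zone cells, the latter under the floor, so that follicular cells had at least 4.77 times the signal. A second probe set, 1419156_at, was at 28.6 and 4.16 and at least 2.26-fold higher, and 1419155_a_at was at 23.5 and 3.17 and at least 1.86-fold higher. All 3 measured probe sets of Sox4 were over both background marks in follicular cells and under the floor in marginal zone cells. Only 1433575_at was also over 33.0, the highest signal of the unrelated tissue genes. The remaining 3 were under the floor on both arrays, with signals from 1.21 to 8.39 in follicular and from 0.594 to 9.10 in marginal zone cells, and have no order.

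Cd93, the receptor also known as AA4 that marks transitional B cells, was at 52.4 in follicular and 5.54 in marginal zone cells by probe set 1419589_at. The latter was under the floor, so follicular cells had at least 4.14 times the signal. The other probe set, 1449521_at, was under the floor on both arrays, at 9.50 and 1.58. The difference of Cd93 thus rests on 1 probe set, and its follicular signal was at the 76.9th percentile of the array. Cd93 is also made by monocytes and endothelial cells. Of 14 macrophage and monocyte markers, 8 were measured, each with more signal in marginal zone cells, and had a summed signal over all 14 of 131.7 in follicular and 279.8 in marginal zone cells, higher in marginal zone cells where Cd93 was lower. Mpeg1, the brightest of these macrophage markers, was at 33.8 in follicular and 84.6 in marginal zone cells, 2.50-fold. Of the 8, 3 were past 2-fold toward marginal zone cells, where 4.39% of all measured genes were. Of 9 endothelial and platelet markers 2 were measured, and the sums over all 9 were 46.0 and 52.3. The endothelial marker Cdh5 was at 12.8 in follicular and 1.88 in marginal zone cells, barely over the floor and in the same direction as Cd93. The other, Itga2b, was at 16.3 and 20.4. Pecam1, Kdr, Tek and Emcn were under the floor. The part of these cells in the signal of Cd93 was not tested.

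Myb, a transcription factor of progenitors and of the pro-B to pre-B transition, was measured by 2 of its 3 probe sets. The brighter, 1421317_x_at, was at 49.5 in follicular and 28.6 in marginal zone cells, a 1.73-fold excess in follicular cells, over the floor on both arrays. The suffix x in its name is the manufacturer's mark for probes that may also match other transcripts. The second, 1450194_a_at, was at 23.3 and 5.34 and at least 1.84-fold higher, while 1422734_a_at was under the floor at 6.16 and 1.98. All 3 had the higher signal in follicular cells, though neither measured one reached 2-fold.

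Other early cells were looked for beside Sox4 and Myb, which progenitors and T cells can also express. Of 6 progenitor markers 5 were on the array and 2 were measured, Flt3 and Gata2, and the summed signals were 61.8 in follicular and 36.7 in marginal zone cells. Kit, Cd34 and Meis1 were under the floor. Of 8 T cell markers 7 were on the array and 3 were measured, with sums of 52.6 and 34.6. Cd3e was at 17.2 in follicular and 1.29 in marginal zone cells and Cd4 at 13.9 and 1.98. Cd5 went the other way, at 11.7 and 17.8. Cd3d, Cd3g, Cd8a and Thy1 were under the floor. These sums were, like Sox4 and Myb, higher in follicular cells, and their part in the members' values was not tested.

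**Figure D2:**
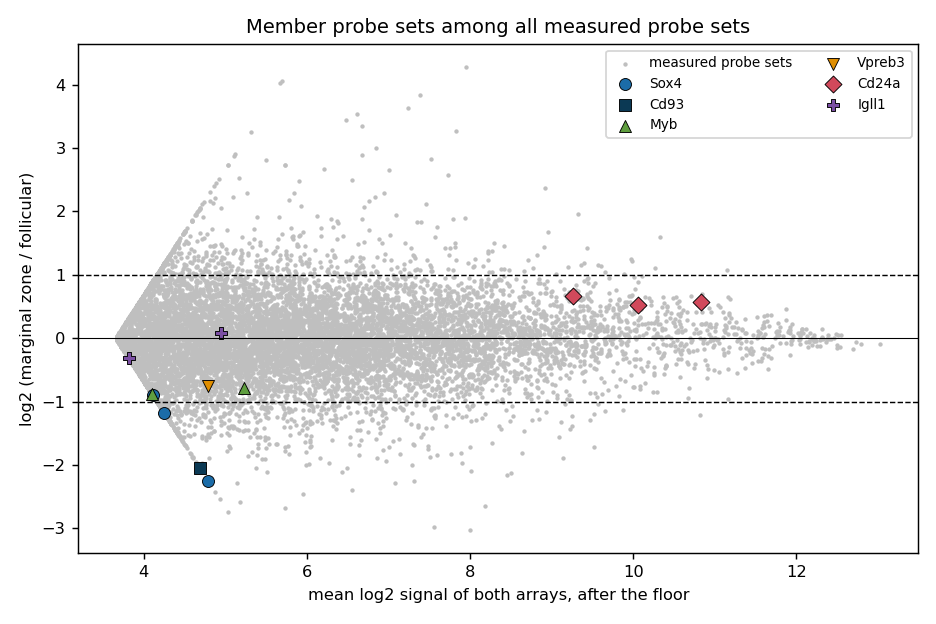
Marginal zone to follicular log2 ratio against the mean log2 signal of both arrays, for all measured probe sets (grey) and the 12 measured member probe sets (coloured by gene); dashed lines mark 2-fold. The probe sets of Sox4 and Cd93, and 1 each of Myb and Igll1, lie on the lower left edge. There the marginal zone value is the floor, while the 3 of Cd24a lie above 0 among bright probe sets.

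The same values can be counted by probe set, which is a description and no further support, since a probe set over the floor on 1 array alone was measured only through that array. Of the 12 measured member probe sets, 6 were over the floor in follicular cells alone and 0 in marginal zone cells alone, against 12.9% and 11.0% of all 12847 measured probe sets. Past 2-fold toward follicular cells were 3, namely 2 of Sox4 and 1 of Cd93, where 4.76% of measured probe sets were, and 0 toward marginal zone cells, where 4.27% were. The 6 are 3 of Sox4 and 1 each of Cd93, Myb and Igll1, so probe sets of 1 gene make up much of this count and are not independent. Of the measured probe sets of unrelated tissue genes, 0 of 18 were past 2-fold toward follicular cells and 1 toward marginal zone cells.

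The surrogate light chain and its relatives had low signals. Vpreb3, a partner of immunoglobulin chains in the endoplasmic reticulum of developing B cells, had 1 probe set, at 35.9 in follicular and 21.2 in marginal zone cells, a 1.69-fold follicular excess, over the floor on both arrays. Igll1, the lambda5 chain, was at 29.9 and 31.7 by 1420176_x_at, a difference of 1.06-fold, and at 15.8 and 10.7 by 1420177_at, at least 1.24-fold toward follicular cells. The probe sets of Igll1 therefore had opposite signs, and no direction is given for this gene. Its brighter probe set also has the x suffix, and Igll1 resembles the lambda light chains in sequence. Both signals of that probe set, and the marginal zone signal of Vpreb3, were under 33.0, the highest signal of the unrelated tissue genes.

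The recombination genes were not distinguishable from background. Dntt, the terminal transferase that adds bases at the junctions, had 3 probe sets with signals from 1.62 to 8.18 in follicular and from 1.68 to 6.43 in marginal zone cells. Rag1, a recombinase subunit, had 1 probe set, at 0.808 and 11.1, both under the floor, so the gap between them is not read as a difference. Of the wider list of 7 surrogate light chain and recombination genes, 6 had a probe set of their own; of the genes outside the members, Vpreb1 and Rag2 were under the floor as well. A probe set shared by Vpreb1 and Vpreb2, the other surrogate light chain genes, was at 16.2 in follicular and 1.68 in marginal zone cells, over the floor in follicular cells but under 17.2.

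Cd24a, a small glycolipid-anchored surface protein whose level falls as B cells mature, was the one abundant member, and it was higher in marginal zone cells. Probe set 1448182_a_at was at 1502 in follicular and 2225 in marginal zone cells, 1.48-fold higher. Probe set 1416034_at was at 892.4 and 1285, 1.44-fold higher, and 1437502_x_at at 486.8 and 769.7, 1.58-fold higher. All 3 had the same direction and all were between the 96.4th and the 99.3rd percentile of their array. The log2 ratios ran from 0.53 to 0.66. Between measured probe sets of 1 gene the SD was 0.43, over 2622 genes of all signal levels and not only bright ones. The 3 probe sets read the same 2 samples, so their likeness says nothing of variation between samples. None of the 3 reached 2-fold, and Cd24a ranked 1097th of 7695 measured genes from the marginal zone end. Cd24a thus went the opposite way from Sox4 and Cd93. Red cell precursors and neutrophils also carry CD24. Of 9 erythroid markers 4 had a probe set of their own, with summed signals of 44.7 in follicular and 27.0 in marginal zone cells, and 1 probe set shared by the haemoglobin beta genes was at 36.1 and 8.91. The brightest of 3 probe sets shared by the haemoglobin alpha genes was at 23.4 and 25.1. Of 9 neutrophil markers 8 were on the array, with sums of 67.4 and 81.4. The part of these cells in the signal of Cd24a was not tested.

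**Figure D3:**
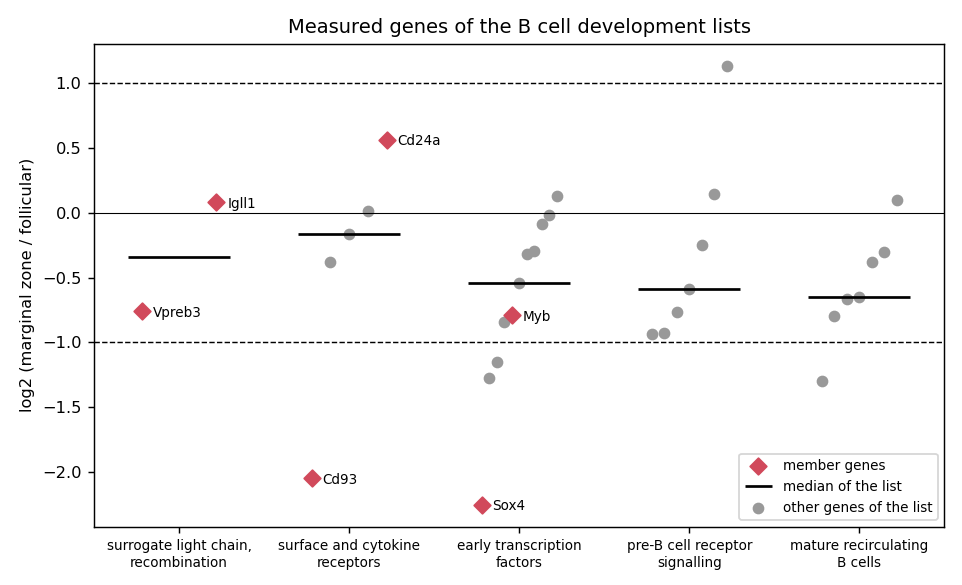
Marginal zone to follicular log2 ratio for each measured gene of 5 lists of B cell development, with member genes as red diamonds and the list median as a bar; dashed lines mark 2-fold. Cd93 and Sox4 lie below -2, while Cd24a, at 0.57, lies above 0.

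Lists of genes of the same stages, grouped by role, were also taken. They hold members as well: Cd93 and Cd24a are among the receptors, and Sox4 and Myb among the transcription factors. Counts and medians include them. Of 7 surface and cytokine receptor genes of immature cells, 5 were measured, and their median log2 ratio was -0.16. Cd93 was the one past 2-fold. Il7r, the interleukin-7 receptor of pro-B cells, was at 14.1 and 4.95, Spn, which encodes CD43, at 16.5 and 7.42, and Flt3 at 19.7 and 19.9. The marginal zone signals of Il7r and Spn were under the floor and their follicular signals barely over it, so a difference as large as that of Cd93 could not have been seen in them. Kit and Bst1 were under the floor.

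Of 15 early B lineage transcription factors 11 were measured, 10 of them with the higher signal in follicular cells. The median log2 ratio was -0.54, against -0.03 over all measured genes. The 10 include Irf4, at 532.4 and 527.1, and Tcf3, at 60.4 and 56.8, which were nearly alike on both arrays. The share of all measured genes with the higher signal in follicular cells was not counted, for this list or those below. Their median of -0.03 is negative, so such genes are at least as many as the rest. The counts alone therefore show no lean. Past 2-fold in follicular cells were Sox4, Irf8 and Gfi1, where 4.86% of all measured genes were. In marginal zone cells 0 were past it, where 4.39% of all measured genes were. Gfi1, a zinc-finger repressor, was at 83.9 and 37.8, 2.22-fold, and Irf8, an interferon regulatory factor of early and mature B cells, at 712.5 and 295.2, 2.41-fold. Ebf1, the factor that specifies the B lineage, had the highest signal of the list and was alike on both arrays at 987.1 and 1083. Erg, Lef1 and Ikzf1 were under the floor.

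By their medians, lists that are not restricted to immature cells leaned the same way. Of 7 measured genes of pre-B cell receptor signalling, used again by the mature receptor, 5 were higher in follicular cells, with a median of -0.59. Cd79b, a signalling chain of the receptor and the brightest of them in follicular cells, was at 1040 and 545.9. The kinase gene Blk went the other way, at 178.6 and 392.5, 2.20-fold. Of 7 measured genes of mature recirculating B cells, 6 were higher in follicular cells, with a median of -0.65, and Klf2, a factor of lymphocyte traffic, was at 1111 and 451.9, 2.46-fold. The medians of these lists, which hold no members, were as low as that of the early transcription factors, which include Sox4 and Myb. A lean of the median to follicular cells was thus not particular to genes of immature stages. Among the 5 lists, Sox4 and Cd93 had the lowest log2 ratios after the floor. This rank is no support, since both are members, chosen with earlier results of these data known. Genes as dim as Il7r and Spn could not have reached such ratios.

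**Figure D4:**
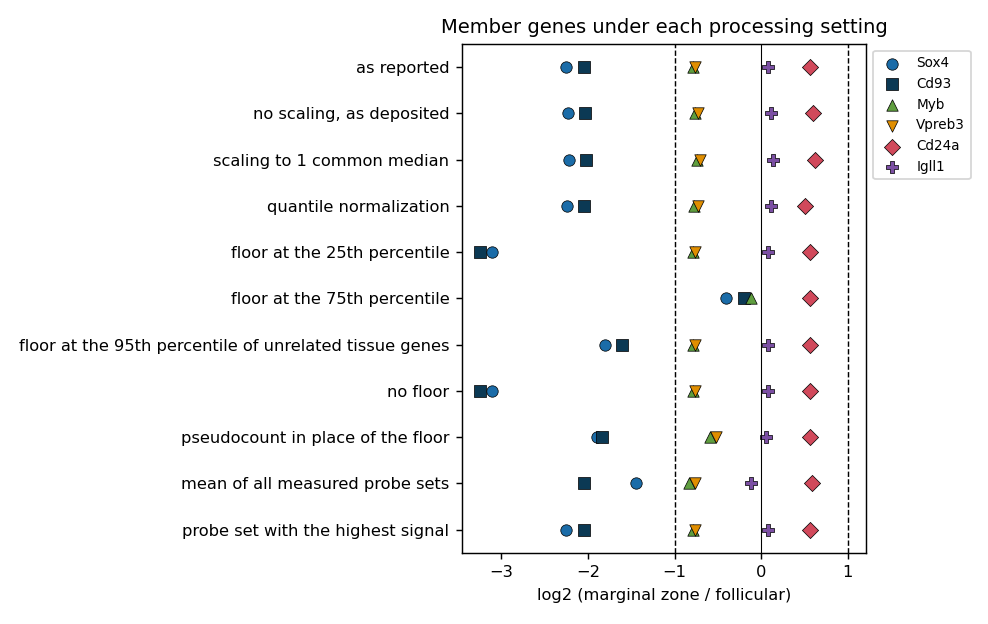
Marginal zone to follicular log2 ratio of the 6 measured member genes under the reported processing and 10 alternatives; dashed lines mark 2-fold. Sox4 and Cd93 stay past 2-fold except with the floor at the 75th percentile, and Cd24a stays between 0.50 and 0.62.

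Scaling had little effect on the members, and the floor had more. Across the 4 scalings, including none, 2 members stayed past 2-fold toward follicular cells. With the floor at the 75th percentile of all signals, 45.7, the log2 ratios shrank to -0.40 for Sox4 and -0.20 for Cd93, and with no floor they were -3.10 and -3.24. Both directions were kept in all 11 settings, which is no support. The settings rework the same 2 arrays, and both genes were over the floor of 12.7 in follicular cells alone. Their directions could therefore hardly have turned.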

How the data were processed

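The authors' deposited table holds linear intensities, 1 for each probe set on each array, which per the submitters' processing notes are MAS5 signals; the MAS5 version, scaling target, detection calls and genome build were not given in the sources used here. Per the labels' protocols about 100 ng of total RNA was labelled in 2 cycles, so the members' low signals come from amplified RNA. Both arrays were scaled to 1 common trimmed mean (2% off each end, factors 1.01 and 0.990) and raised to the floor of 12.7 before log2 ratios were taken. Each gene was represented by the measured probe set whose mean log2 signal was highest. A fold against a value under the floor is written "at least". Gene names came from the platform's annotation, in which 20380 had 1 gene, 691 several and 1555 none; the 8 member symbols matched RefSeq (GRCm38.p6), and upstream windows were found for 6 of them. Named were all members and the gate genes. Of other lists, those named were genes past 2-fold with a signal of at least 45.7 (75th percentile) and the brightest of each list. Marker genes given by name with low values, and Krt10, Irf4 and Tcf3, were chosen after their values were seen. Members and lists were chosen with earlier results of these data known. Functions were tested on simulated data with changes put into bright genes only, which says nothing of ratios near the floor. Python 3.11.15, numpy 2.4.6 and pandas 2.3.3 were used. The number of arrays, 1 for each population, limits the precision, and the floor and the probe set rule set the size of the ratios near background.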

Additional observations from a re-analysis of the deposited data

How the results depend on the processing

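No paired analysis was possible because each population has 1 array, and for the same reason leaving out a replicate could not be done. The count of members at least 2-fold higher in follicular cells stayed at 2 under 9 of the 10 other scalings, floors and probe set rules and at 3-fold. It was 0 with the floor at the 75th percentile, which lies close to the follicular signals of Sox4 and Cd93, and 4 at a threshold of 1.5-fold. With the floor at the 25th percentile, 3.84, the count past 2-fold toward marginal zone cells was 1, Rag1 with a log2 ratio of 1.53, and 19 member probe sets exceeded the floor; with the 75th percentile 6 did. The log2 ratio of Sox4 was -1.44 over the mean of its 3 measured probe sets and -1.81 with the floor at the 95th percentile of unrelated tissue genes, where Cd93 was at -1.61. Igll1 ran from -0.12 to 0.14, with 1 of 10 settings negative. Of the members, only Cd24a had signals far above background on both arrays.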
